A study of Mus musculus with 4 samples.

Results

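The 10 genes described here encode transcription factors that establish and hold B cell identity, together with a coactivator of the octamer-binding factors: Pax5, Ebf1, Ikzf1, Ikzf3, Bach2, Bcl11a, Pou2af1, Pou2f2, Foxp1 and Bcl6. They were chosen by name, and each was found as 1 entry among the 20599 gene symbols of the deposited tables. They were compared between wild-type B1a cells (n = 2 libraries) and wild-type follicular B2 cells (n = 2 libraries) of C57BL/6 mice by RNA-Seq. The B1a cells were sorted from peritoneal washes by a gate that included CD23- IgM+ CD5+, and the B2 cells from spleen by a gate that included IgD hi IgM lo CD21+. No group carried a transgene or treatment by its labels, but the study's methods call the controls littermates in one place and C57BL/6J mice in another, so whether a control mouse carried the Cre transgene or a floxed Dnmt3a allele is not settled here. The labels give an age of 4 weeks for all 4 libraries, whereas the methods give 8 weeks for the B2 mice. The type of cell therefore cannot be told apart from its tissue or, going by the methods, from age. The methods name 2 control mice for each cell type but the labels do not tie libraries to mice, so p-values measure the spread between these libraries, which may be technical.

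B lymphopoiesis depends on EBF1 and PAX5, which specify the lineage and then keep it by activating B cell genes and silencing those of other lineages. Ikaros (Ikzf1) and Aiolos (Ikzf3) are zinc finger proteins that act through chromatin remodeling complexes, BACH2 and BCL6 are repressors that hold back plasma cell differentiation, and OCT2 (Pou2f2) with its coactivator OCA-B (Pou2af1) acts at octamer sites in B cell promoters. BCL11A is a zinc finger repressor needed for early B cells and known as well for silencing fetal globin, and FOXP1 is a forkhead factor needed for early B cell development and for mature follicular B cells. B1a cells are a self-renewing population of body cavities that arises largely from fetal precursors, whereas follicular B2 cells recirculate and supply germinal centers.

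The library totals lay between 11032732 and 18588623 counts. Levels are given as CPM, counts divided by the library total after TMM normalization. Across the 12078 genes tested, which are not independent, Pearson's correlation of log2 CPM was 0.836 for the pair of B1a libraries and 0.966 for the B2 pair. The B cell markers were all above 3 counts in every library, with a summed level between 5715 and 6422 CPM without TMM scaling. The 5 B1a markers were higher in both B1a libraries (859.3 and 1138 CPM in sum) than in both B2 libraries (77.5 and 79.2 CPM), and of the 4 follicular markers 3 were lower in B1a cells and Cxcr5 was higher. Cd5 among the former and Fcer2a and Cr2 among the latter encode proteins used in the sort. Macrophage markers summed to 202.4 and 251.9 CPM in the B1a libraries and to 67.9 and 77.1 CPM in the B2 libraries, and 5 of the 9 were higher in both B1a libraries, while Fcgr1 was at 0 in both. T cell markers summed to between 67.2 and 104.4 CPM over all 4 libraries, with Cd4 and Thy1 at 0 in both B1a libraries. Erythroid markers stood at 485.3 CPM in B1a replicate 2 and at 83.2 CPM or less elsewhere. Mast cell markers summed to 37.9 and 9.43 CPM in B1a cells and to 0 and 0.968 CPM in B2 cells, neutrophil markers to 11.2 CPM at most, and plasma cell markers to between 79.8 and 113.7 CPM, with Tnfrsf17 at 0 in every library. The part of these other cells in the results was not tested.

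Bcl6, Bach2 and Bcl11a differed the most between the cell types among the members, and the sequence before their transcription starts is shown for that reason. The windows are 250 bases long, come from the RefSeq annotation of GRCm38.p6 and run 5′ to 3′ on the gene's strand. Capitals mark matches to any of 5 motifs searched on both strands, namely the octamer ATGCAAAT, the EBF motif CCCNNGGG, the Ikaros core TGGGAA, the E-box CANNTG and the core TTCNNNGAA, which BCL6 and STAT proteins share. The Ikaros core can lie across the end of a TTCNNNGAA match, which is not the case in the windows shown. Bach2 has 1 window (chr4:32417185-32417434, plus strand), Bcl6 has 2 (chr16:23988853-23989102 and chr16:23981284-23981533, minus strand) and Bcl11a has 1 (chr11:24080445-24080694, plus strand). The Bach2 and Bcl11a windows lie inside the spans given below for these genes, as does the downstream Bcl6 window. They therefore precede internal starts and not the outermost start of the gene.
Bach2: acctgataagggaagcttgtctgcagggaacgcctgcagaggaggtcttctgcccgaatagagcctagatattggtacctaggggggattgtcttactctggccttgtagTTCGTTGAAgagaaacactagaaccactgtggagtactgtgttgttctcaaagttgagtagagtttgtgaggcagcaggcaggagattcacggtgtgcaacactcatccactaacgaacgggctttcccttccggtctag
Bcl6 upstream start: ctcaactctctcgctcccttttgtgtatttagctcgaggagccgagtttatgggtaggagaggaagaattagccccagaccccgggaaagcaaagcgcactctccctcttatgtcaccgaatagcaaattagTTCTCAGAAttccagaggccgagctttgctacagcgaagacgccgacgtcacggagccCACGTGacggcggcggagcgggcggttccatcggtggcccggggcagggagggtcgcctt
Bcl6 downstream start: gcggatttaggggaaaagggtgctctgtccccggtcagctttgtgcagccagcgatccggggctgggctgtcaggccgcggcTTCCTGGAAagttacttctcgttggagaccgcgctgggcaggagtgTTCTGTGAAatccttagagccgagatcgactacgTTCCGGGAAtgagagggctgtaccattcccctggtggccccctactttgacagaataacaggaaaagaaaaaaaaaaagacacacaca
Bcl11a: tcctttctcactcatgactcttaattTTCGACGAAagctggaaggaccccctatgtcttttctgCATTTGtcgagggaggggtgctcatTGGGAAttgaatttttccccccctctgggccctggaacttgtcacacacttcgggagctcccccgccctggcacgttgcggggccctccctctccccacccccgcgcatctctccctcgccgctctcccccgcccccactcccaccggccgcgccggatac
TTCNNNGAA was found 1 time before Bach2 and before Bcl11a, 1 time before the upstream start of Bcl6 and 3 times before its downstream start. The window of the upstream start also held 1 E-box, and that of Bcl11a 1 E-box and 1 Ikaros core. Among all 32851 mouse promoters of this length, 7.02% held at least 1 TTCNNNGAA, 66.2% an E-box, 21.6% an Ikaros core, 11.8% an EBF motif and 1.6% an octamer. The RefSeq table matched 9 of the 10 members, all but Ikzf3, with 14 windows. Of these 14, 4 held TTCNNNGAA, 9 an E-box, 2 an Ikaros core, 2 an EBF motif and 0 an octamer. These matches describe the letters of the windows alone.

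All 10 members were expressed in all 4 libraries and passed the filter on low counts. Of the 10, 5 passed edgeR's quasi-likelihood test at 0.05 after Benjamini-Hochberg adjustment across all tested genes, and all 5 were higher in B2 cells: Bcl6, Bach2, Bcl11a, Pax5 and Ebf1. Among all 12078 genes tested, 693 (5.74%) passed, of which 512 (4.24%) had the higher level in B1a cells and 181 (1.5%) in B2 cells. On log2(TPM + 1), TPM being a level per transcript length scaled to a common total, the corresponding counts were 266 and 233. No member was called higher in B1a cells; at an unadjusted p under 0.05 there was 1, Pou2af1, DESeq2 called 1 and limma-voom called 0. The groups did not overlap for 9 of the 10 members, against 54.3% of the genes tested, with Ikzf1 as the exception. The median log2 fold change (B1a minus B2) of the members was -0.50, beside -0.03 for all genes tested. In bulk samples, fewer cells that express a gene and less RNA per cell cannot be told apart.

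**Figure D1:**
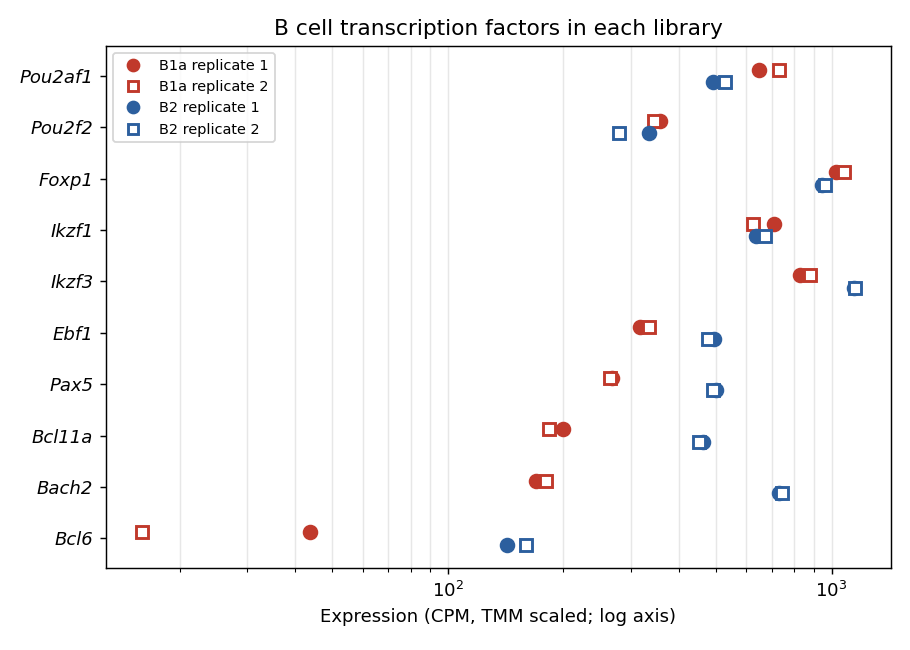
Level of each member in each library, in CPM after TMM scaling on a log axis, with B1a libraries in red and B2 libraries in blue, replicate 1 as a filled circle and replicate 2 as an open square. Bcl6, Bach2, Bcl11a, Pax5, Ebf1 and Ikzf3 lie to the right in both B2 libraries, the points of Ikzf1 overlap, and the B1a replicates of Bcl6 lie far apart (43.8 and 15.9 CPM).

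The lineage-specifying factors were both lower in B1a cells. Pax5 (chr4:44524748-44710694, GRCm38) stood at 267.7 and 264.9 CPM in the B1a libraries and at 500.6 and 492 CPM in the B2 libraries. The replicates lay within 1.02-fold of each other in both cell types, and the groups were far apart. Pax5 was 1.86-fold higher in B2 cells (266.3 ± 1.93 against 496.3 ± 6.08 CPM, SD, n = 2), a log2 fold change of -0.90 ± 0.11 (SE, adjusted p = 0.010). It kept a log2 fold change between -1.14 and -0.89 under all 10 alternative analyses and with each library left out, and passed the threshold in each of the 10 alternatives. Ebf1 (chr11:44618100-45008096) stood at 317.4 and 333.8 CPM in B1a cells and at 494.5 and 476.1 CPM in B2 cells. Again the groups did not overlap, but the difference of 1.49-fold was smaller and close to the threshold (log2 fold change -0.58 ± 0.11, SE, adjusted p = 0.043). The call on Ebf1 was lost without B2 replicate 1 (adjusted p = 0.38) or without B2 replicate 2 (adjusted p = 0.25), where the log2 fold change was -0.55 and -0.61.

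Within a library, the ratio of Pax5 to Ebf1 in TPM was 3.81 and 3.61 in the B1a libraries and 4.60 and 4.68 in the B2 libraries. On expected counts, which are not divided by length, it was 0.843 and 0.794 in the B1a libraries and 1.01 and 1.03 in the B2 libraries. Counts therefore do not show which gene had the higher level, and the TPM ratio rests on a deposited Pax5 length of 1208 bases. On either unit the log2 ratio was 0.32 lower in B1a cells, beside a pooled SD between replicates of 0.04 (TPM) and 0.05 (counts). Such a difference does not depend on how libraries are scaled to each other. Over the 4 libraries and the 8900 tested genes whose mean reached 10 CPM, the profiles nearest to that of Pax5, by Euclidean distance of centred log2 CPM, were Gal3st3 (distance 0.05), Arid1a (0.08) and Dgka (0.09). Those nearest to Ebf1 were Map3k10 (0.03), Cd40 (0.04) and Zswim8 (0.06).

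The largest differences among the members were those of the plasma cell repressors Bach2 and Bcl6. Bach2 (chr4:32238413-32586109), for which the window before an internal start is printed above, stood at 169.9 and 180.3 CPM in B1a cells and at 728.5 and 744.2 CPM in B2 cells. It was 4.21-fold higher in B2 cells (175.1 ± 7.38 against 736.4 ± 11.1 CPM, SD, n = 2), with a log2 fold change of -2.07 ± 0.11 (SE, adjusted p = 0.0013). Among all genes tested, 5.16% had a lower log2 fold change. The log2 fold change of Bach2 lay between -2.31 and -2.03 under every alternative and with any library left out, and it passed under every alternative with all libraries. Its rank by TPM among the detected genes was 4113 and 3863 in the B1a libraries and 650 and 651 in the B2 libraries.

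Bcl6 (chr16:23965050-23988866) was the least abundant member and the one with the widest spread. It stood at 43.8 and 15.9 CPM in the B1a libraries and at 142.5 and 159.4 CPM in the B2 libraries. B1a replicate 1 exceeded replicate 2 by 2.75-fold, whereas no other member differed by more than 1.13-fold between the B1a replicates. These levels rest on 489 counts (95% Poisson interval 447 to 534) and 177 counts (152 to 205), so the gap between the B1a libraries was wider than counting error, which is all that these intervals cover. Among the 2443 genes whose mean reached 100 CPM, the median ratio between replicates was 1.17 in B1a cells and 1.08 in B2 cells. Bcl6, averaged over both cell types, fell short of 100 CPM, so this set holds more abundant genes and is not matched to its level. Even the higher B1a library lay well below both B2 libraries, and Bcl6 was 5.05-fold higher in B2 cells (29.9 ± 19.7 against 151 ± 11.9 CPM, SD, n = 2). The log2 fold change was -2.34 ± 0.47 (SE, adjusted p = 0.047). It was -3.25 without B1a replicate 1 and -1.79 without B1a replicate 2. Such fits take their spread from the B2 pair alone, so whether they pass says nothing about the gap between the B1a libraries. Among the 10 alternatives with all libraries 7 passed, with adjusted p up to 0.074. T cells of germinal centers express Bcl6 as well. Without TMM scaling, the T cell markers summed to 104.4 and 67.2 CPM in the B1a libraries and to 95.6 and 93.9 CPM in the B2 libraries. Within that sum Cd8a (23.0 and 4.15 CPM) and Cd3g (10.02 and 0.173 CPM) were higher in B1a replicate 1, as Bcl6 was, while Cd3d (14.1 and 17.6 CPM) was not and Cd4 and Thy1 were at 0 in both. The part of T cells in the Bcl6 values was not tested.

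Bcl6 and Bach2 were each lower in B1a cells, but their ratio to each other was not distinct between the cell types. Bcl6 to Bach2 in TPM was 0.677 and 0.232 in the B1a libraries and 0.513 and 0.561 in the B2 libraries. The B1a libraries thus lay on either side of the B2 libraries.

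Bcl11a (chr11:24076564-24173558) stood at 199.9 and 183.7 CPM in B1a cells and at 463.7 and 452.7 CPM in B2 cells. It was 2.39-fold higher in B2 cells (191.8 ± 11.4 against 458.2 ± 7.77 CPM, SD, n = 2), with a log2 fold change of -1.26 ± 0.12 (SE, adjusted p = 0.0049). All 10 alternatives passed, and the log2 fold changes over these and the 4 omissions of a library lay between -1.33 and -1.19. Bcl11a was also the member whose deposited gene length varied the most between libraries. The deposited gene length, which RSEM weights over the transcripts it finds, was 3415 and 3990 bases in the B1a libraries and 4555 and 4503 bases in the B2 libraries. The groups did not overlap. The B1a replicates differed from each other by more than the B2 replicates did, and by more than the nearest libraries of the groups did. The entry covers 4 transcripts, and transcripts of Bcl11a in the GENCODE annotation have lengths of 1505, 2329, 3061 and 5989 bases. Among the other members with several transcripts, the weighted length of Ikzf1 was 5233 and 5242 bases against 5298 and 5292 bases. These groups did not overlap either, with a range of 1.24%. The lengths of Ebf1, Pou2f2 and Foxp1 overlapped between groups and varied by 0.874% or less. Estimated lengths carry no error in the deposited tables and were not tested. TPM divides by that length. Relative to the median of all genes, the log2 fold change of Bcl11a was -0.90 on log2(TPM + 1) and -1.23 on counts, the widest gap between these scales among the members.

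**Figure D2:**
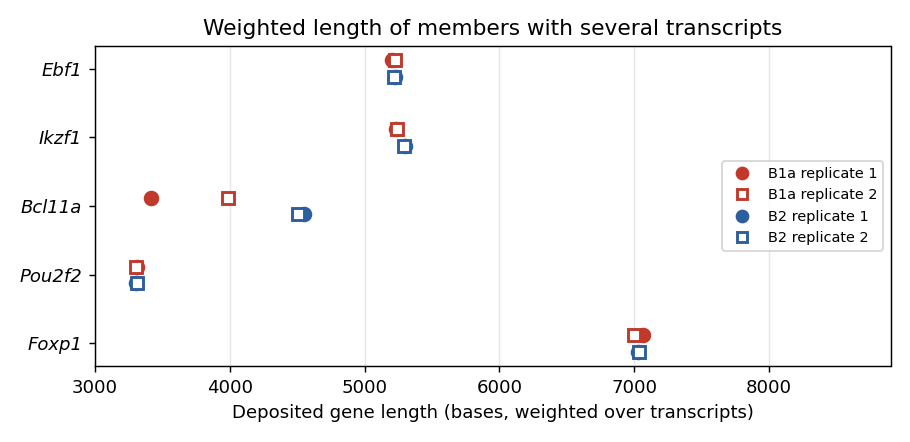
Deposited gene length in bases, weighted over transcripts by RSEM, for the 5 members with several transcripts, in each B1a library (red) and B2 library (blue), with replicate 1 as a filled circle and replicate 2 as an open square. Bcl11a spans 3415 to 4555 bases with the B1a libraries lowest, and the other 4 genes vary by 1.24% or less.

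Neither Ikaros family member passed the test. Ikzf3 (chr11:98464610-98546031) stood at 827.1 and 880.1 CPM in B1a cells and at 1142 and 1150 CPM in B2 cells. The groups did not overlap, with a 1.34-fold higher mean in B2 cells, yet the log2 fold change of -0.42 ± 0.10 (SE) had an adjusted p of 0.074. It passed in 8 of the 10 alternatives, and its direction was the same in all of them. Ikzf1 (chr11:11684962-11772930) stood at 707.1 and 624.5 CPM in B1a cells and at 634.6 and 669.2 CPM in B2 cells, and these ranges overlapped. The log2 fold change was 0.03 ± 0.12 (SE, adjusted p = 0.93) and fell below 0 with upper quartile scaling (-0.04) and on log2(TPM + 1) (-0.20). The ratio of Ikzf1 to Ikzf3 in TPM was 0.667 and 0.553 in the B1a libraries and 0.428 and 0.449 in the B2 libraries. The ratio was higher in both B1a libraries, by 0.47 on the log2 scale beside a pooled SD of 0.14.

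Neither gene of the octamer pair passed the test. Pou2af1 (chr9:51213690-51240079) stood at 648.6 and 728.8 CPM in B1a cells and at 489.7 and 528.9 CPM in B2 cells. The groups did not overlap, and the mean was 1.35-fold higher in B1a cells, but the log2 fold change of 0.44 ± 0.12 (SE) had an adjusted p of 0.109 and passed in 3 of the 10 alternatives. Pou2f2 (chr7:25087350-25180797) stood at 356.7 and 345.2 CPM in B1a cells and at 335.1 and 280.1 CPM in B2 cells. Its lowest B1a library lay just above its highest B2 library, and the log2 fold change of 0.19 ± 0.14 (SE, adjusted p = 0.517) turned to -0.04 on log2(TPM + 1). The ratio of Pou2f2 to Pou2f1, the ubiquitous OCT1, was 5.01 and 4.00 in B1a cells and 4.34 and 3.52 in B2 cells in TPM, and so overlapped.

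Foxp1 (chr6:98925342-99522746) stood at 1027 and 1076 CPM in B1a cells and at 943.3 and 960.7 CPM in B2 cells. The groups did not overlap but were close, with a log2 fold change of 0.14 ± 0.10 (SE, adjusted p = 0.497) that turned to -0.10 on log2(TPM + 1). On that scale the median of all genes was -0.30, and relative to that median Foxp1 stood at 0.20, Pou2f2 at 0.25 and Ikzf1 at 0.10. Foxp1, Pou2f2 and Ikzf1 passed in none of the 10 alternatives or the 4 omissions of a library.

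**Figure D3:**
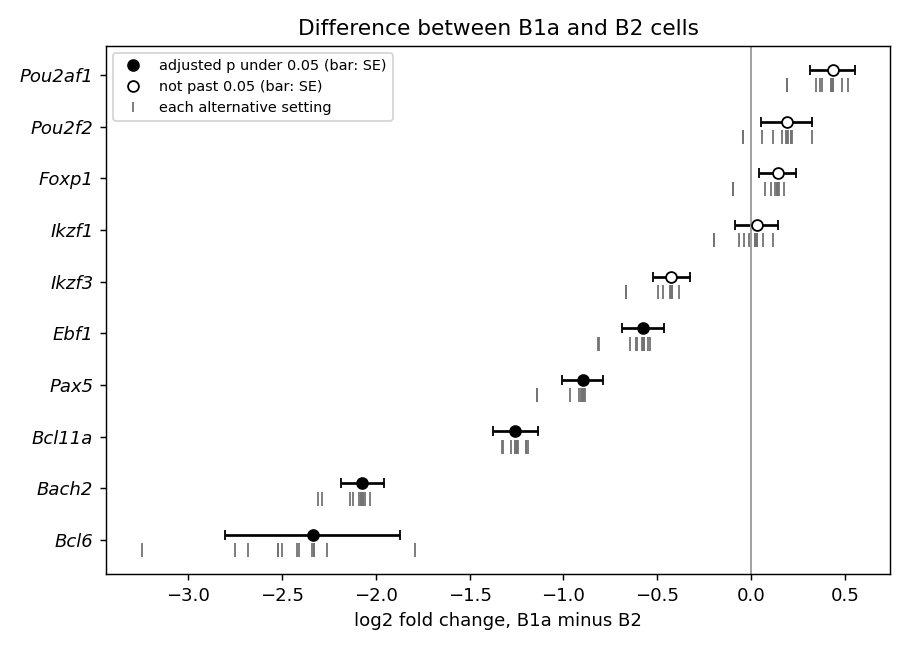
Log2 fold change (B1a minus B2) of each member with its SE, filled where the adjusted p was under 0.05, with a tick below for each alternative setting, omissions of a library included. The 5 filled points lie between -2.34 (Bcl6) and -0.58 (Ebf1), the ticks of Ikzf1, Pou2f2 and Foxp1 fall on both sides of 0 because of the TPM scale and, for Ikzf1, also upper quartile scaling and omissions, and those of Bcl6 spread from -3.25 to -1.79.

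Per length, as TPM, the order of the members differed between the cell types. In B1a cells the mean fell from Pou2af1 (629.5 TPM) through Pax5 (535.2), Ikzf3 (483.4), Foxp1 (344.4), Ikzf1 (294.2), Pou2f2 (247.4), Ebf1 (144.3), Bcl11a (121.8) and Bach2 (47.4) to Bcl6 (21.3). All 9 pairs of neighbours in that order were separate, in that their ranges over the replicates did not overlap. In B2 cells Pax5 led with 1178 TPM, followed by Ikzf3 (766.9), Pou2af1 (550.2), Foxp1 (368.7), Ikzf1 (336.3), Bcl11a (277.1), Pou2f2 (256.3), Ebf1 (254.0), Bach2 (235.6) and Bcl6 (126.6). Here 7 of the 9 neighbouring pairs were separate, while Bcl11a with Pou2f2 and Pou2f2 with Ebf1 overlapped. Pax5 thus ranked 229 and 232 among all genes in the B1a libraries and 111 and 115 in the B2 libraries. The deposited length of the Pax5 entry was 1208 bases, whereas GENCODE lists a transcript of 8004 bases. The counts belong to the deposited entry, and what counts and TPM the longer transcript would give was not tested. The place and rank of Pax5 in either cell type rest on the deposited length, whereas its difference between cell types does not. The members summed to 2889 and 2849 TPM in the B1a libraries and to 4378 and 4322 TPM in the B2 libraries.

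**Figure D4:**
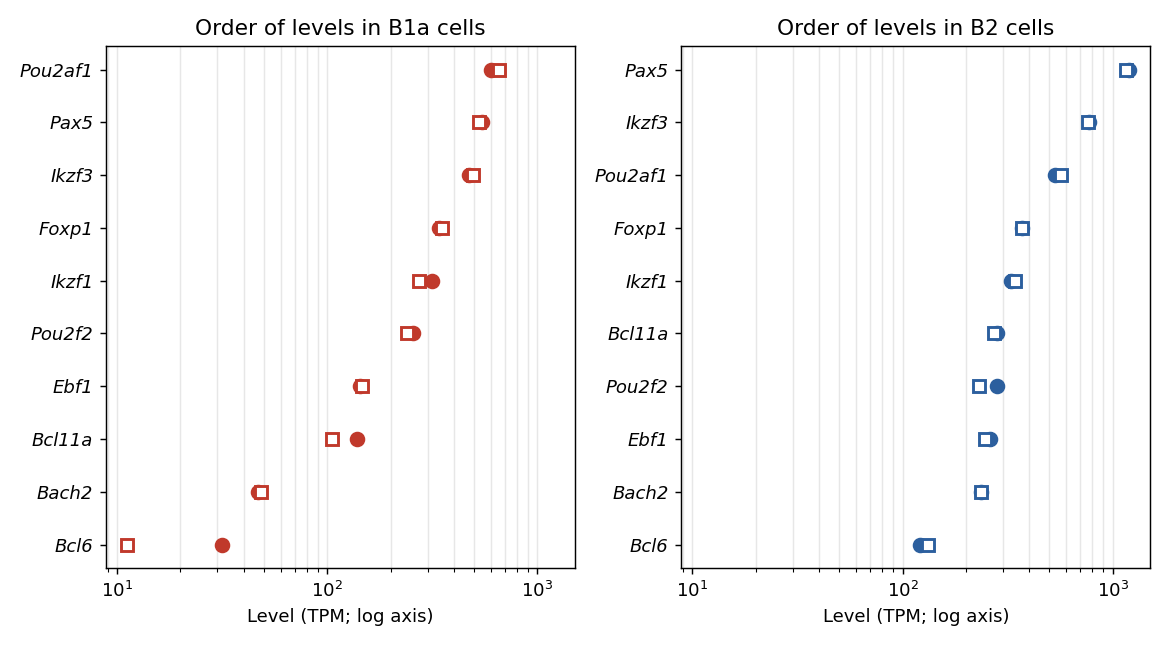
Level of each member in TPM on a log axis, ordered by the mean in B1a cells (left, red) and in B2 cells (right, blue), with replicate 1 as a filled circle and replicate 2 as an open square. Levels in B1a cells reach from 21.3 TPM (Bcl6) to 629.5 TPM (Pou2af1), and those in B2 cells from 126.6 TPM (Bcl6) to 1178 TPM (Pax5).

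The members held most of the TPM of the families compared here in every library. Ebf1 made up at least 99.5% of the TPM of the EBF family and Bcl11a at least 99.2% of the Bcl11a and Bcl11b total. Bach2 made up 70.9% and 64.8% of the Bach1 and Bach2 total in the B1a libraries and 90.4% and 89.9% in the B2 libraries. Bach1, a repressor of heme-regulated genes, stood at 47.9 and 67.4 CPM in B1a cells and at 53.3 and 57.3 CPM in B2 cells, so its groups overlapped. Ikzf3 made up 57.9% and 61.6% of the Ikaros family in B1a cells and 67.9% and 66.6% in B2 cells, and Ikzf1 38.6% and 34.0% against 29.1% and 29.9%. Foxp1 made up 87.1% and 88.0% of the FOXP family in B1a cells and 76.4% and 80.4% in B2 cells. Foxp4 held most of the rest, with a log2 fold change of -0.83 ± 0.19 (SE, adjusted p = 0.066). Pou2f2 made up between 77.9% and 83.4% of the POU2F family without a separation of the groups. Bcl6 made up 100% and 70.3% of the Bcl6 and Bcl6b total in the B1a libraries, where Bcl6b had 0 and 78 counts, and 97.6% and 99.7% in the B2 libraries, so the groups overlapped and B1a replicate 2 stood apart. Bach1 and Foxp4 were named after their values were seen.

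Of the other 16 members of these families, 9 were tested and none passed, beside 5.74% of all genes tested. At an unadjusted p under 0.05 there were 1 higher in B1a and 1 higher in B2 cells, DESeq2 called 1 and limma-voom 0. Their median log2 fold change was 0.01, and the most abundant, Pou2f1, stood at 282.6 and 345.4 CPM in B1a cells and at 308.9 and 316.8 CPM in B2 cells. The direction of Pou2f1 was not settled, with a log2 fold change of 0.01 that turned to -0.06 with upper quartile scaling and to -0.24 on log2(TPM + 1). Ikzf2, Foxp3, Bcl11b, Bcl6b and Pax8 had means of 6.05 CPM or less in both groups and SEs between 1.28 and 2.26. The lack of a call on them decides little. The dimer and corepressor partners included the small MAF proteins that pair with BACH2 and subunits of deacetylase complexes used by Ikaros factors and BCL6. The corepressors Bcor and Tle4 completed the list. All 18 were tested and none passed, beside the same 5.74% of all genes. At an unadjusted p under 0.05 there were 1 higher in B1a and 3 higher in B2 cells, and DESeq2 and limma-voom called 0. Their median log2 fold change was -0.10, and the most abundant, the remodeler Chd4, stood at 679.4 and 579.7 CPM in B1a cells and at 796.9 and 727.3 CPM in B2 cells (log2 fold change -0.28 ± 0.13, SE, adjusted p = 0.29).

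Of the genes that PAX5 and EBF1 are known to activate, all 12 were tested. Of these, 2 were called higher in B1a cells and 5 lower, beside 4.24% and 1.5% of all genes tested. The list had a median log2 fold change of -0.45, beside -0.03 for all genes tested. Blk, a Src family kinase of the B cell receptor, was higher in B1a cells (726.4 and 851.5 against 464.1 and 428.1 CPM, log2 fold change 0.82 ± 0.13, SE, adjusted p = 0.021), as was Cd79a, a signaling chain of the receptor (1756 and 1661 against 1207 and 1151 CPM, log2 fold change 0.53 ± 0.10, SE, adjusted p = 0.035). Both calls were lost on log2(TPM + 1), for Blk with a log2 fold change of 0.58 (limma, adjusted p = 0.0741) and for Cd79a with 0.29 (adjusted p = 0.183), and on that scale the 5 genes called were all higher in B2 cells. The call on Cd79a was also lost with upper quartile factors (adjusted p = 0.053), without B2 replicate 1 (0.109) and without B2 replicate 2 (0.216). Vpreb3, a pre-B cell receptor chaperone, had 0 counts in both B1a libraries and 23.2 and 20.1 CPM in the B2 libraries, and was at least 80.4-fold higher in B2 cells against a floor of 3 counts per library, with a call that was lost with limma-voom (adjusted p = 0.0856). Fcer2a (log2 fold change -3.87 ± 0.12, SE) and Cr2 (-3.40 ± 0.12) were higher in B2 cells as well, but encode CD23 and CD21, which the sort used. Without them, an alternative chosen after seeing the data, 2 of 10 genes were higher in B1a cells, 3 were lower and the median was -0.23. The remaining called genes were Cd72, an inhibitory receptor, and Ciita, the master regulator of MHC class II genes, both higher in B2 cells.

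Of 7 genes that PAX5 is known to silence, all were tested and 1 passed, beside 5.74% of all genes tested. Emb, an adhesion protein, stood at 49.0 and 68.3 CPM in B1a cells and at 3.64 and 4.71 CPM in B2 cells (log2 fold change 3.80 ± 0.38, SE, adjusted p = 0.0054). None was called higher in B2 cells by edgeR's quasi-likelihood test, DESeq2 or limma-voom, and at an unadjusted p under 0.05 there was 1. The median log2 fold change was -0.11, beside -0.03 for all genes tested. Flt3 (0 and 5.40 CPM in B1a cells), Cd28 (0 CPM in both B1a libraries) and Jchain (0.179 and 5.40 CPM in B1a cells) lay near the floor. Their SEs were 2.045, 2.4 and 1.665, so the lack of a call on them decides little. Csf1r, also on the macrophage list, stood at 16.9 and 21.9 CPM in B1a cells and at 21.2 and 18.4 CPM in B2 cells.

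Genes that BCL6 or BACH2 are known to repress had the highest median of the lists, 1.59 on the log2 scale over 10 tested genes. The median of all genes tested was -0.03. Of the 10 repressed genes, 5 were called higher in B1a cells, beside 4.24% of all genes tested. None was higher in B2 cells by edgeR at an adjusted or unadjusted p under 0.05, by DESeq2 or by limma-voom, beside 1.5% of all genes called by edgeR. Cd80, a costimulatory ligand, stood at 64.9 and 54.0 CPM in B1a cells and at 2.08 and 4.50 CPM in B2 cells (log2 fold change 4.15 ± 0.48, SE, adjusted p = 0.0087). Prdm1, which encodes the plasma cell regulator BLIMP1, stood at 22.4 and 36.2 CPM in B1a cells and at 4.16 and 4.13 CPM in B2 cells (log2 fold change 2.82 ± 0.51, SE, adjusted p = 0.035). The call on Prdm1 was lost with limma-voom (adjusted p = 0.0554), on log2(TPM + 1) (0.107) and on log2(TPM + 0.1) (0.13), and without B2 replicate 1 (0.122) or B2 replicate 2 (0.138). Of the plasma cell markers other than Prdm1, Xbp1 and Jchain overlapped between groups, and Sdc1 stood at 0 and 7.96 CPM in B1a cells and at 14.1 and 26.0 CPM in B2 cells without TMM scaling. Cd44, an adhesion receptor also found on myeloid cells, stood at 307.3 and 565.4 CPM in B1a cells and at 86.4 and 92.6 CPM in B2 cells (log2 fold change 2.29 ± 0.30, SE, adjusted p = 0.012; adjusted p = 0.0506 on log2(TPM + 0.1)). The other called genes were Ccnd2, a cyclin of the G1 phase, and S1pr1, the receptor for egress from lymphoid tissue. Macrophages express several genes of this list, and their part in these values was not tested.

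Of 5 genes linked to OCT2 and OCA-B, 3 were called higher in B1a cells, beside 4.24% of all genes tested. None was higher in B2 cells by edgeR at an adjusted or unadjusted p under 0.05, by DESeq2 or by limma-voom, beside 1.5% of all genes called by edgeR. The median log2 fold change was 0.73, beside -0.03 for all genes tested. Spib, which was not called, is on this list and on that of the PAX5 and EBF1 activated genes. Il5ra, a chain of the interleukin-5 receptor, stood at 423.7 and 377 CPM in B1a cells and at 155.3 and 159.1 CPM in B2 cells (log2 fold change 1.35 ± 0.13, SE, adjusted p = 0.0049). Cxcr5, the receptor that directs B cells to follicles, stood at 939.8 and 1095 CPM in B1a cells and at 392.7 and 410.4 CPM in B2 cells (log2 fold change 1.34 ± 0.12, SE, adjusted p = 0.0043), against its place on the follicular list. Ms4a1, which encodes CD20, had a log2 fold change of 0.73 ± 0.13 (SE, adjusted p = 0.030) and was not called without B2 replicate 1 (adjusted p = 0.113) or on log2(TPM + 1), where the log2 fold change was 0.50 (adjusted p = 0.104).

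**Figure D5:**
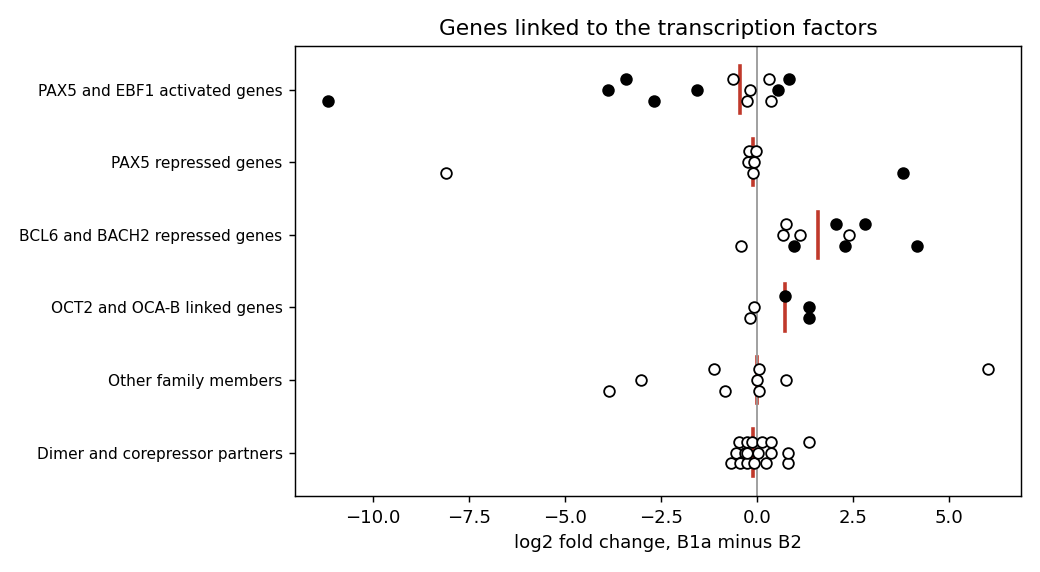
Log2 fold change (B1a minus B2) of each tested gene on the 6 lists around the members, filled where the adjusted p of edgeR was under 0.05, with a red line at the median of the list. The BCL6 and BACH2 repressed genes have the highest median (1.59), and no gene is filled among the other family members and the partners. The lowest point is Vpreb3, with 0 counts in both B1a libraries, whose fitted position depends on the test's prior count.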

How the data were processed

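RNA-Seq libraries of wild-type B1a cells (n = 2) and B2 cells (n = 2) were analyzed, grouped by their labels. The authors used the mm10 genome, RefSeq gene models and RSEM, whose version is 1.25.0 in the methods and 1.2.29 in the submitters' processing notes. The methods name a stranded library kit, whereas whether RSEM used strand is not given in the sources used here. The authors deposited an expected count per gene entry, without normalization, and TPM, scaled within each library. They also deposited the gene length and effective length of each entry in bases, and a signal value, RSEM's posterior standard deviation of the count, which for the members was at most 0.381% of the count. FPKM values were deposited as well and not used.

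The 21970 entries were summed to 20599 symbols and rounded. Counts were filtered with filterByExpr, scaled by TMM (factors 0.964, 0.963, 1.05 and 1.03) and tested two-sided by the quasi-likelihood method of edgeR 4.0.16 under R 4.3.3, with no block and with Benjamini-Hochberg adjustment over 12078 genes and a threshold of 0.05. SEs were derived from the F statistic. The study's EBSeq test was not run. With 2 libraries per group an exact permutation test of 1 gene cannot go below p = 0.333. The 3-count floor and the Poisson intervals cover counting error only. Alternatives were DESeq2 1.42.0, upper quartile factors, limma-voom (limma 3.58.1) with and without a weight for each cell type, a stricter filter (10 counts in each library), no filter other than 1 count, limma on log2(TPM + 1) and log2(TPM + 0.1), a replicate block, unsummed entries, and each library left out. Scripts were tested on simulated data.

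The members and gene lists were chosen with earlier results of these data known. Genes given by name were the members, the called genes of each list with the 3 largest log2 fold changes in each direction, the most abundant gene of a list without calls, the 3 profiles nearest to Pax5 and Ebf1, and defining cell type markers. Cd72, Ciita, Ccnd2, S1pr1, Bach1 and Foxp4 fall outside this rule. Positions are from RefSeq on GRCm38, where no annotated gene that overlaps a member has an entry of its own in the tables.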

Additional observations from a re-analysis of the deposited data

How the results depend on the processing

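With 2 libraries per group, the spread of a gene rests largely on what all genes share, and the B1a pair differed more than the B2 pair. Without B1a replicate 1 or 2 that spread came from the B2 pair alone, and a lone library was assumed to vary like the other cell type, with 3953 and 6143 genes called, respectively. Over the 4 omissions of a library the genes called ranged from 539 to 6143 (higher in B1a 394 to 2787, higher in B2 144 to 3356, against 693, 512 and 181), and the members called from 4 to 7. The list counts ranged from 6 to 11 (PAX5 and EBF1 activated), 1 to 4 (PAX5 repressed), 4 to 8 (BCL6 and BACH2 repressed), 2 to 3 (OCT2 and OCA-B linked), 0 to 7 (other family members) and 0 to 8 (partners). The log2 fold change ranged from -0.61 to -0.54 for Ebf1, -0.47 to -0.38 for Ikzf3, 0.35 to 0.52 for Pou2af1 and -0.06 to 0.12 for Ikzf1, and that of Pou2f1 from -0.15 to 0.14.

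With all libraries, the genes called were 1550 with DESeq2 (1004 higher in B1a, 546 higher in B2), 1415 with weights by cell type (1054 and 361), 1141 without a filter (779 and 362) and 359 on log2(TPM + 0.1), where 196 had the higher level in B1a cells, beside 266 on log2(TPM + 1). Those higher in B2 were 278 with limma-voom and 279 with a minimum of 10 counts. The members called numbered between 4 and 7 throughout. Ikzf3 passed with DESeq2 (-0.42), upper quartile factors (-0.49), limma-voom with and without weights (-0.43), a minimum of 10 counts (-0.43), log2(TPM + 1) (-0.67) and log2(TPM + 0.1) (-0.67), and Pou2af1 with DESeq2 (0.44) and with weights (0.43). Bcl6 did not pass on log2(TPM + 1) (-2.68), on log2(TPM + 0.1) (-2.75) or with unsummed entries (-2.33). Directions turned for Ikzf1 with upper quartile factors (-0.0389) and on both TPM scales (-0.20 and -0.20), for Pou2f2 (-0.0444 and -0.0445) and Foxp1 (-0.10 and -0.10) on both TPM scales, and for Pou2f1 with upper quartile factors (-0.0635), limma-voom without and with weights (-0.00504 and -0.00487), both TPM scales (-0.24 and -0.24), without B1a replicate 2 (-0.15) and without B2 replicate 1 (-0.01). Ikzf1 also turned without B1a replicate 1 (-0.0639) and without B2 replicate 1 (-0.01). The median of all genes was -0.30 on log2(TPM + 1) and -0.32 on log2(TPM + 0.1). The BCL6 and BACH2 repressed genes had 3 calls on log2(TPM + 0.1), the other family members 1 with DESeq2, weights, a minimum of 10 counts or no filter, and the partners 2 with weights. On both TPM scales the calls on Blk, Cd79a, Prdm1 and Ms4a1 were lost. The causes of these changes were not tested.

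The deviations of same-numbered replicates correlated at -0.03 over genes, which are not independent. This value cannot tell whether same-numbered libraries share more than a number, and the labels do not say. With a replicate block, 1481 genes passed (889 higher in B1a, 592 higher in B2), as did 7 members, among them Ikzf3 (-0.43) and Pou2af1 (0.43), 1 other family member and 1 partner, and Pou2f1 stood at -0.00171. With counts in place of TPM, the 4 ratios were separate or overlapped between the cell types as before, but Pax5 to Ebf1 fell from between 3.61 and 4.68 to between 0.794 and 1.03, below 1 in both B1a libraries. The share of a member in its family moved from -22.3 to -17.6 percentage points (B1a minus B2) for Bach2, from 9.15 to 6.02 for Foxp1 and from 0.557 to 0.883 for Bcl11a, and by less than the spread between replicates for the others. CPM per effective length gave the same order of members as TPM.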
